A study of Homo sapiens with 16 samples.

Results

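Malign_3 is a malignant cluster of the T22 mouse mammary tumor model, and its members here were the cells that the authors' deposited annotation named Malign_3, taken with their raw UMI counts (unique molecular identifiers, so that each count stands for a captured RNA molecule). There were 1125 such cells among 48824 cells of 16 sequenced pools. Of these, 907 came from 8 pools of tumors treated for 20 days (the long-term pools, 25723 cells in all) and 218 from 4 pools of T22 tumors treated for 4 or 8 days (the short-term pools, 15094 cells). The other 4 pools held T127 tumors treated for 4 or 8 days and had 0 Malign_3 cells among 8007, which allows a share of up to 0.0375% (3 counts of 8007) by counting error alone. T22 and T127 tumors are passaged from mouse to mouse and arose in animals whose mammary epithelial cells carried a transgene for LPA1, a receptor for lysophosphatidic acid. Chunks of LPA1-T22 or LPA1-T127 tumor were placed in the mammary fat pad of female FVB mice of 6 weeks, which have an intact immune system. In co-transplanted mice, T22 went into the opposite fat pad before T127. The mice received vehicle or olaparib, an inhibitor of the DNA repair enzyme PARP, by mouth every day at 50 mg/kg. Each pool mixed dissociated, live-enriched cells of several tagged tumors, vehicle and olaparib together, and the long-term pools mixed both models and both kinds of transplantation. The files used here do not tie a cell to its tumor, so olaparib was not compared with vehicle and single strain transplantation was not compared with co-transplantation. The organism field of the labels reads Homo sapiens, but the source, the gene symbols and the genome build (GRCm38) are mouse.

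The mammary duct has an inner layer of luminal cells and an outer layer of basal, or myoepithelial, cells. Luminal cells are joined by tight junctions, make simple-epithelial keratins such as Krt8 and Krt18, and secrete milk and antimicrobial proteins. Myoepithelial cells make Krt5, Krt14 and smooth muscle proteins such as Acta2, rest on the basement membrane and contract. Luminal progenitors are known for Kit and Elf5, and hormone-sensing luminal cells for the estrogen and progesterone receptors.

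Malign_3 was a minority of the T22 tumor cells, and its share differed between the experiments. In the long-term pools it made up 40.2% of the cells in the T22 malignant clusters (95% exact binomial interval 38.1 to 42.2%), and the other T22 malignant cluster, Malign_2, made up the rest. The pools ranged from 34.3% to 49.2%. In the short-term pools the shares were 14.0%, 8.82%, 10.5% and 11.1%, or 11.2% in all (9.79 to 12.6%), so no short-term pool reached a long-term one. Cell numbers per pool ran from 93 to 132 in the long-term pools and were 72, 44, 51 and 51 in the short-term pools. Malign_3 was 3.53% of all long-term cells (3.30 to 3.76%) and 1.44% of all short-term T22 cells (1.26 to 1.65%). The long-term and short-term tumors differed in treatment time, transplantation setting, pool and depth together, so these cannot be told apart. All intervals given here cover counting error only.

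**Figure D1:**
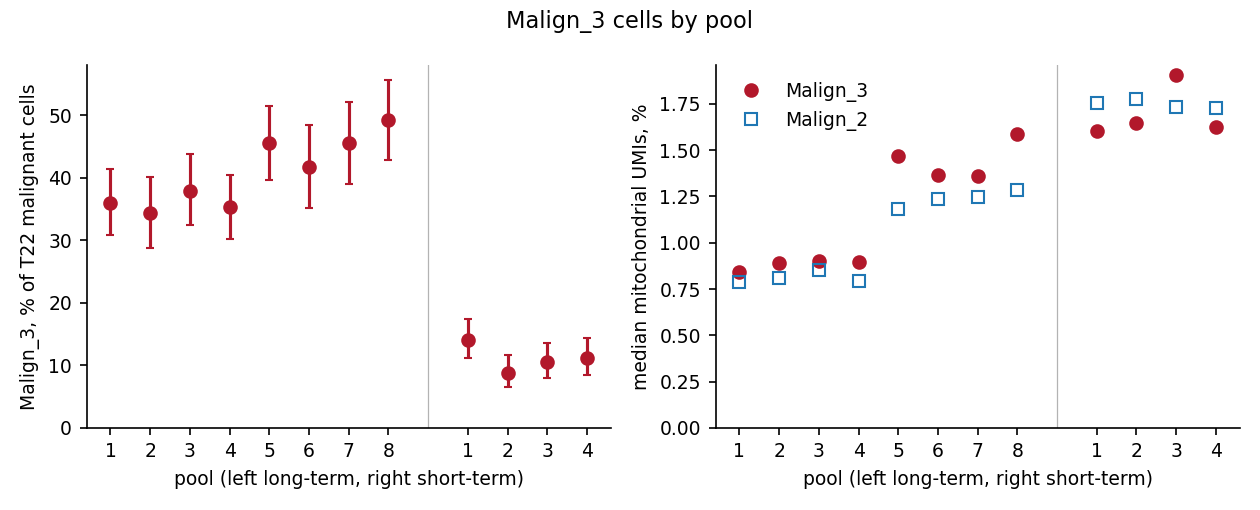
The left panel plots Malign_3 as a percent of the T22 malignant cells in each of the 12 pools with exact 95% binomial bars, and the right panel plots the median percent of mitochondrial UMIs per cell (filled points Malign_3, open squares Malign_2). The short-term shares of 8.82 to 14.0% lie below every long-term share, and long-term pools 5 to 8 lie above pools 1 to 4 in mitochondrial percent in both clusters.

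The Malign_3 cells were deeply sequenced. They held 15782564 UMIs in the long-term and 5242278 in the short-term pools, with 1113964 UMIs or more in every pool, and medians of 15056 and 21180.5 UMIs and 3568 and 4746.5 genes per cell. Malign_2 was close, with medians of 15779.5 and 25194.5 UMIs. No long-term cell of the 4 malignant clusters had fewer than 7502 UMIs and no short-term one fewer than 9006, whereas T cells of CD4_Tcm-TCF7 went down to 819 and 801. Long-term pools shared 4146 cell barcodes of 16 bases, and only the deepest copy of each was kept. This took pool 1 from 5670 to 3066 cells and pool 2 from 5405 to 2948. The other pools changed little (pool 8 from 3291 to 3279). What the sharing came from was not tested. Of the shared barcodes, 17 had a Malign_3 copy, 10 of them in Malign_3 in every copy and 7 in another cluster as well, and 11 Malign_3 copies were left out.

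Long-term pools 1 to 4 stood apart from pools 5 to 8, which was noticed after the data were examined, and the labels name no batch. In pools 1 to 4, Malign_3 was 35.8% of the T22 malignant cells (452 cells, interval 33.2 to 38.6%), and in pools 5 to 8 it was 45.6% (455 cells, 42.5 to 48.7%). The number of Malign_3 cells was thus nearly equal, and the share differed because Malign_2 had 809 and 543 cells. Of the T127 clusters, Malign_1 had 1253 and 541 cells and Malign_0 had 1291 and 1518. The median mitochondrial percent of its cells was 0.887 in the former and 1.45 in the latter, and in Malign_2 it was 0.803 and 1.23. Within Malign_3, 31 genes were higher in pools 5 to 8 (0.417% of 7435) and 21 lower (0.282%), and within Malign_2, 19 were higher (0.258% of 7360) and 6 lower (0.0815%). The Malign_3 genes included the claudin Cldn4, at 267 to 366 CPM (counts per 1000000 UMIs) in pools 1 to 4 and 142 to 164 in pools 5 to 8, and Isg15, an interferon-induced ubiquitin-like protein, at 199 and 503 CPM. Isg15 moved the same way in Malign_2, at 206 and 392 CPM. Genes of other cells moved with the same split. The hemoglobin genes Hbb-bs (694 and 1834 CPM) and Hba-a1 (293 and 1103) were higher in pools 5 to 8 in Malign_3, and in Malign_2 they were at 722 and 1811 and at 314 and 1082. The macrophage lysozyme Lyz2 was at 43.6 and 132 CPM in Malign_3 and at 48.6 and 46.7 in Malign_2. The part of other cells' RNA in the split was not tested. The comparison with Malign_2 gave much the same counts in either set of pools, with 730 genes higher and 783 lower in pools 1 to 4 and 732 and 855 in pools 5 to 8.

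The label was checked against Epcam, Krt8, Krt18 and Cdh1. Levels are CPM of the summed UMIs of a cluster. Epcam, an epithelial adhesion molecule, lay at 2619.6 CPM in the lowest, 2732 in the median and 3074 in the highest long-term pool in Malign_3, against 861, 914 and 1004 in Malign_2. In the short-term pools it was 2127, 2297, 2071 and 2213 against 735, 682, 844 and 742. The clusters did not overlap in either experiment, and the long-term ratio was 3.02 (2.97 to 3.07). Krt8 and its partner Krt18 form the intermediate filaments of simple epithelia. Krt8 ran from 1627 over a median of 2076 to 2156 CPM in the long-term pools (Malign_2 200.2, 228 and 269) and was 1803, 2048, 1818 and 1786 in the short-term pools (Malign_2 245, 225, 279 and 257). Krt18 ran from 2573 over 3060.2 to 3607 CPM (Malign_2 58.7, 88.8 and 103) and was 1585, 1748, 1303 and 1836 in the short-term pools (Malign_2 31.3, 27.6, 49.3 and 42.4). All Malign_3 pools lay above all Malign_2 pools for both keratins, and the long-term ratios were 8.72 (8.47 to 8.98) and 34.5 (33.0 to 36.1).

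Cdh1, E-cadherin of the adherens junction, separated the clusters least. Its long-term pools ran from 81.6 over 112 to 147 CPM in Malign_3 and from 56.6 over 64.3 to 82.0 in Malign_2, which overlapped, and the ratio of 1.74 (1.63 to 1.87) did not reach 2. Its short-term levels were 247, 359, 259 and 263 CPM against 162, 161, 154 and 166, which did not overlap. For all 4 genes, another cluster lay nearer to Malign_3 than Malign_2 did in the long-term pools. The highest were the myeloid CD14-IL1B for Epcam (992 CPM) and the T127 cluster Malign_0 for Krt8 (735). They were the myeloid CD14-PF4 for Krt18 (647) and plasmacytoid dendritic cells for Cdh1 (84.0). The names of the clusters came from expression of these same cells, so every difference between clusters here is a description and carries no test.

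**Figure D2:**
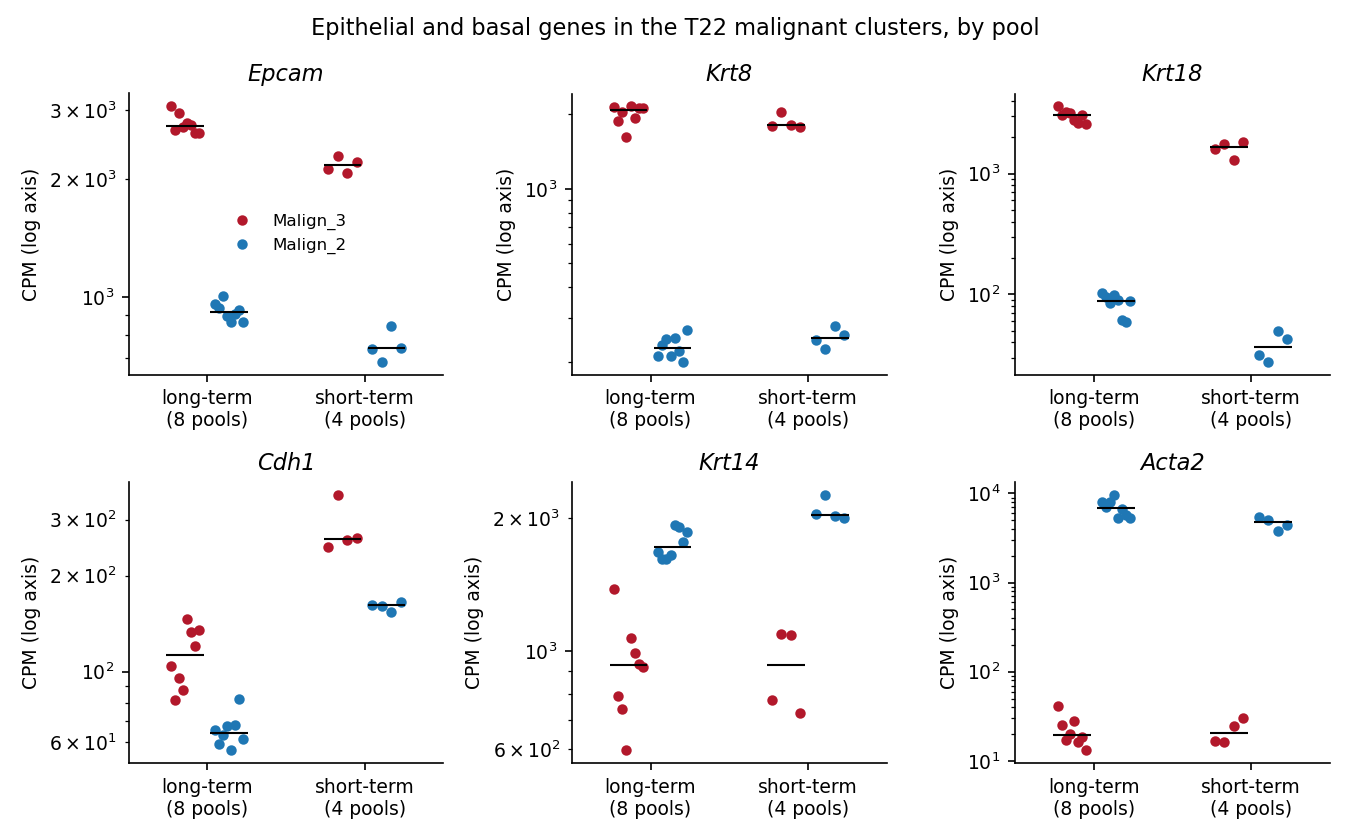
CPM on a log axis for Epcam, Krt8, Krt18, Cdh1, Krt14 and Acta2 in each of the 8 long-term and 4 short-term pools, with Malign_3 in red, Malign_2 in blue and a black bar at the median over pools. The Malign_3 points lie above the Malign_2 points for Epcam, Krt8 and Krt18 in every pool, below them for Krt14 and Acta2, and touch them for Cdh1 in the long-term pools.

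Nearly every Malign_3 cell carried the keratins. With each cell thinned to 3000 UMIs, Krt8 was seen in 97.6% of long-term cells (96.4 to 98.5%) and 96.3% of short-term cells, and in 44.7% and 47.4% of Malign_2 cells. Krt18 was seen in 99.2% and 96.3% of Malign_3 cells. T cells of CD4_Tcm-TCF7, which should lack these genes, showed Krt8 in 5.26% and 1.76% and Krt18 in 6.04% and 0.857% of cells, at median depths of 2757.5 and 6403 UMIs (623 of 1136 and 222 of 2438 cells were too shallow to thin). The basal keratin Krt14 was seen in 51.4% of long-term Malign_3 cells (48.1 to 54.7%) and 51.8% of short-term ones, with 4.09% and 8.21% in the T cells and 87.0% and 90.2% in Malign_2. Krt8 and Krt14 were seen together in 457 of 907 long-term cells (50.4%) and 109 of 218 short-term cells (50.0%). Acta2 was seen in 4.85% and 6.88% of Malign_3 cells, below the 9.36% and 14.3% of the T cells. Those T cells were shallower, so their share may not be the background of Malign_3. The part of other cells' RNA in these shares was not tested. The leukocyte gene Ptprc was seen beside Epcam in 2.65% and 2.29% of Malign_3 cells.

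Simple keratins stood higher in Malign_3, and the keratins of basal and stratified layers were lower only in part. A gene is called higher or lower here and below where its level differed at least 2-fold, on log2(CPM + 1), with the same direction in every pool, and genes under 10 CPM in both clusters were left out. Over all genes, 8.89% were higher and 10.2% lower in Malign_3 than in Malign_2 in the long-term pools and 9.85% and 11% in the short-term pools. All 4 simple keratins above 10 CPM were higher in Malign_3 in the long-term pools, with a median log2 ratio of 3.67. Krt7 lay between 943 and 1620.5 CPM (median 1367) in the long-term pools and at 557, 662, 473 and 617 in the short-term pools, and Krt19 between 465 and 607 (median 534) and at 592, 516, 508 and 557. Malign_2 stayed under these ranges, at 70.7 and 45.5 CPM for Krt7 and 62.9 and 80.3 for Krt19. Krt20 had no UMI in Malign_3. Krt5, the basal partner of Krt14, was nearly missing from Malign_3, at 0.972 to 6.58 CPM in the long-term pools (median 3.47) and 35.1, 15.3, 30.5 and 34.6 in the short-term pools. Malign_2 held 789.8 to 986 CPM and 1739.6, 2070.1, 1533 and 1671, which is 295 times as much in the long-term pools (223 to 399). Krt14 itself was present in Malign_3, at 597 over 929 to 1379 CPM and at 774, 1092, 1085 and 723. That was below Malign_2 in every pool (1611 to 1926, and 1998 to 2255), with log2 ratios of -0.90 in the long-term pools, which missed the 2-fold limit, and -1.21 in the short-term pools. Krt15 was lower in Malign_3 too, at 128 against 1091 CPM. Krt6a, a keratin of stressed and stratified epithelium, was called higher in the long-term pools only, at 12.8 against 0.0425 CPM, and lay under 10 CPM in the short-term pools. Of the keratins of basal and stratified layers, 1 of 6 was higher and 2 lower in the long-term pools (median -0.81), and 0 of 5 were higher and 4 lower in the short-term pools (-1.87).

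Across all genes, Malign_3 differed from Malign_2 at many genes, in both directions. In the long-term pools, 698 of 7850 genes were higher in Malign_3 (8.89%) and 800 lower (10.2%), with a median log2 ratio over all genes of 0.02. In the short-term pools, 870 of 8832 were higher (9.85%) and 968 lower (11%), with a median of 0.06. Of the 7678 genes above the minimum in both experiments, 597 were higher in both (7.78%), 709 were lower in both (9.23%) and 0 had opposite calls. The genes higher in both were 85.5% of the long-term and 68.6% of the short-term list, and the genes lower in both 88.6% and 73.2%. The log2 ratios of the experiments correlated across these genes with Pearson's r of 0.969, where both rest on the same cluster definitions and genes are not independent replicates.

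**Figure D3:**
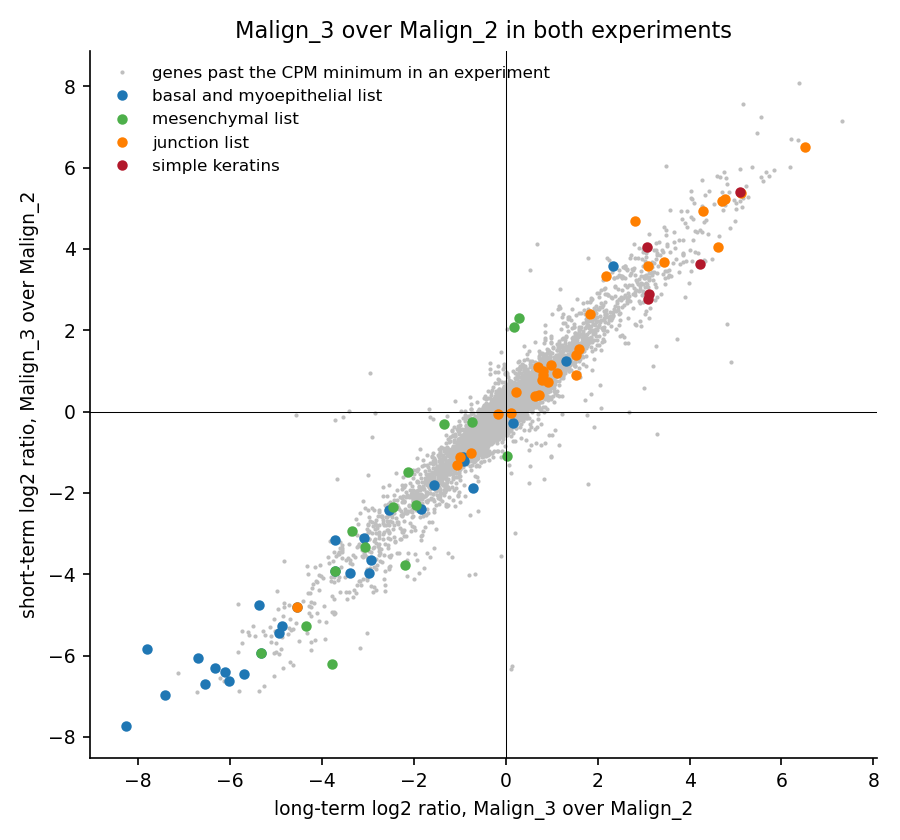
Log2 ratio of Malign_3 to Malign_2 in the long-term pools (horizontal) against the short-term pools (vertical), with a grey point for each gene past the CPM minimum in either experiment and the simple keratins, junction, basal and mesenchymal lists coloured. Simple keratins and most junction genes lie at the upper right, basal and most mesenchymal genes at the lower left, and no gene is called in opposite directions.

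The 12 genes with the largest long-term ratios among those called in both experiments included ion transport, junction, secreted and signaling genes. Fxyd2, a regulator of the sodium pump, was at 322 to 625 CPM in the long-term pools (median 394) and 116, 280.1, 151 and 138 in the short-term pools, with a long-term ratio to Malign_2 of 245 (182 to 339), or 384 (256 to 607) without pool 2, where Malign_2 held 6.78 CPM. Cldn4, a tight junction claudin, was at 142 to 366 CPM (median 215) and 182, 286, 152 and 187, with a ratio of 148 (107 to 209). Hp, haptoglobin, which binds free hemoglobin, was at 3598 to 5072 CPM (median 4239) and 3869.9, 4146, 3758 and 4041. Malign_2 stayed at 144 CPM or less for Hp in every long-term pool and at 23.3 or less in every short-term pool, and the ratios were 85.6 (80.9 to 90.7) and 291. For each of these 3 genes the lowest Malign_3 pool lay above the highest Malign_2 pool.

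Kit, the receptor tyrosine kinase for stem cell factor, was at 111 to 241 CPM in the long-term pools (median 171) and 492, 524, 502 and 501 in the short-term pools, whereas Malign_2 held 0 to 6.37 and 3.05, 1.27, 1.48 and 3.50. The ratios were 64.3 (50.1 to 83.9) and 218 (180.2 to 266). After thinning, Kit was seen in 35.7% of long-term Malign_3 cells (32.6 to 38.9%) and 66.5% of short-term ones (59.8 to 72.7%), in 0.592% and 0.461% of Malign_2 cells, and in 7.60% and 2.89% of the CD4_Tcm-TCF7 cells. Cxcl17, a mucosal chemokine that draws myeloid cells, was at 338 to 423 CPM (median 391) and 398, 423, 480.2 and 438, with 9.20 or less in every Malign_2 pool. Wfdc12, a whey acidic protein family member, was at 569 to 1234 CPM (median 900.1) and 733, 1591, 1174 and 876, and its ratio was 50.9 (46.2 to 56.1). The other members of the 12 were Edn1, the vasoconstrictor endothelin-1 (106 against 0.298 CPM), Dmkn, a secreted epidermal protein (161 against 1.19), Ptprz1, a receptor tyrosine phosphatase (163 against 1.23), Abcc3, an efflux transporter of organic anions (108 against 0.893), Tesc, a calcium-binding regulator of sodium-proton exchange (117 against 1.23), and Itprid1 (86.5 against 0.850). The Edn1 ratio of 357 (173 to 889.9) rests on pool 2, without which Malign_2 had 1 UMI and the ratio was 2195 (393 to 86761).

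The 12 genes at the other end were led by the contractile apparatus. Acta2, smooth muscle actin, was at 13.1 to 41.5 CPM in Malign_3 in the long-term pools (median 19.3) and 16.7, 16.2, 24.4 and 30.2 in the short-term pools. Malign_2 held 5270.3 to 9661 and 5376, 5038, 3838 and 4413, so that the lowest Malign_2 pool was far above the highest Malign_3 pool and the long-term level was 321 times as high (289 to 357). Malign_2 also exceeded Malign_3 in Myl9, a myosin light chain (779.6 against 3.55 CPM), Cnn1, calponin (328 against 2.15), Mylk, the kinase of myosin light chains (169.5 against 0.824), and Myh11, smooth muscle myosin, which had 3 UMIs in long-term Malign_3 and a ratio of 428 (146 to 2077). Without pool 5, the ratio of Mylk went from 206 to 466. Krt5 was among the 12 as well. Binding proteins of insulin-like growth factors were on the same side, with Igfbp5 at 34.0 to 79.7 CPM in the long-term pools (median 61.4) and 119, 115, 88.9 and 129.6 in the short-term pools, against 4537 to 5553 and 8529 to 9440.2 in Malign_2, and Igfbp3 at 5.01 against 397. The last 4 were Gas1, a hedgehog co-receptor (7.98 against 631), the fatty acid carrier Fabp4 (2.98 against 418), Moxd1 (0.824 against 134) and Gm32585 (1.52 against 351).

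Of the 30 basal and myoepithelial genes, 27 passed the minimum in the long-term pools, and 22 of them were lower and 1 higher in Malign_3, with a median log2 ratio of -4.54. Of 29 in the short-term pools, 26 were lower and 2 higher (median -3.97). Among all genes, 8.89% were higher and 10.2% lower in the long-term pools, and 9.85% and 11% in the short-term pools. Trp63, the p63 transcription factor of basal cells, was at 0.697 CPM against 87.2, the transcription factor Snai2 at 0.950 against 77.4, and Itga6, an integrin that binds laminin, at 83.0 against 707. Mme, a membrane peptidase found on myoepithelial cells, went the other way at 41.2 against 15.9 CPM, as did Ndnf in the short-term pools. Itgb4, which pairs with Itga6, was at 78.0 against 69.8 CPM and was not called, and Sox10 was at 42.4 against 82.2 CPM (log2 ratio -0.94). Of 14 mesenchymal genes above the minimum, 10 were lower and 0 higher in the long-term pools (median -2.32), among them Vim, vimentin (349 against 1356 CPM), the matrix protein Sparc (369 against 4836), the matrix protease Mmp2 (2.47 against 69.6) and the receptor Axl (3.99 against 21.7). Of 12 in the short-term pools, 11 were lower, and Col6a1 was higher.

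Junction genes moved less evenly. Of 29 tight junction and adhesion genes above the minimum in the long-term pools, 14 were higher and 3 lower (median log2 ratio 0.98), and in the short-term pools 15 of 30 were higher and 4 lower (1.05). The shares of all genes were 8.89% higher and 10.2% lower in the long-term pools, and 9.85% and 11% in the short-term pools. Claudins led the higher ones. Cldn3 was at 931 to 1151 CPM in the long-term pools (median 1088) and 984, 943, 923 and 1046 in the short-term pools, with 51.6 or less in every Malign_2 pool, and Cldn7 was at 438 to 699 CPM (median 539) against a Malign_2 level of 14.8. Cldn6 was at 29.0 against 0.213 CPM, the tight junction protein Ocln at 37.6 against 0.978, the scaffold Tjp3 at 37.5 against 3.53 and the desmosomal plakophilin Pkp2 at 47.0 against 0.765. Lower in Malign_3 in both experiments were Cdh3, P-cadherin, known from basal cells (2.34 against 76.7), the plakophilin Pkp3 (32.2 against 68.0) and the polarity protein Pard3 (17.0 against 35.0).

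Transcription factors of epithelial identity were higher on balance, with 8 of 15 higher and 1 lower in the long-term pools (median 1.02) and 8 of 16 and 1 in the short-term pools (0.95). All genes together had 8.89% higher and 10.2% lower in the long-term pools, and 9.85% and 11% in the short-term pools. Ehf, an ETS factor of epithelia, was at 1024 to 1460.3 CPM in the long-term pools against 564 in Malign_2, and its relatives Elf3 and Elf5 were at 33.1 against 3.32 and 12.1 against 1.02. Barx2, a homeobox factor, was at 269.9 to 353 CPM (median 304) and 282, 288, 299.8 and 307, with 10.3 or less in every Malign_2 pool. Klf5 was at 37.2 against 5.36. Tfap2c was the member that was lower, at 57.5 against 171 CPM.

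Of 12 luminal and hormone genes above the minimum in the long-term pools, 6 were higher in Malign_3 and 1 lower (median 1.10), and of 13 in the short-term pools 6 were higher and 5 lower (0.99). For all genes the shares were 8.89% higher and 10.2% lower in the long-term pools, and 9.85% and 11% in the short-term pools. Kit, Elf5, Plet1 (330.0 against 7.10 CPM), Notch3 (27.8 against 3.15) and Cd14 were higher in both experiments. The estrogen and progesterone receptors, Esr1 and Pgr, and the pioneer factor Foxa1 were under the minimum in both clusters. In the long-term pools, Esr1 was at 0.317 against 0.0850 CPM and Foxa1 at 2.41 against 0.0425. Pgr was at 3.10 CPM with 0 UMIs in Malign_2, so that it was at least 24.3-fold higher against a floor of 3 counts there. Gata3 was at 12.9 against 8.84 CPM in the long-term pools (Malign_3 pools 4.12 to 42.4), where it was not called, and at 3.43 against 14.0 in the short-term pools, where it was lower. Prlr, the prolactin receptor, was at 19.5 against 17.9 and at 4.01 against 13.1 CPM, again called lower in the short-term pools only.

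Secretory genes were mostly higher, with 10 of 18 higher and 2 lower in the long-term pools (median 1.27) and 11 and 2 of 18 in the short-term pools (1.53). Across the genome, 8.89% of genes were higher and 10.2% lower in the long-term pools, and 9.85% and 11% in the short-term pools. The whey acidic protein family stood at high levels, with Wfdc18 at 28339 to 38500.0 CPM in the long-term pools and 42469, 26678, 34786 and 27209 in the short-term pools, above the 8715 to 13617 of all Malign_2 pools. Wfdc2 was at 4026 against 277 CPM and Wfdc3 at 1342 against 189. Antimicrobial and mucosal genes followed, namely Ltf, lactoferrin (161 against 5.06), Pigr, which carries IgA across epithelium (99.5 against 5.06), the protease inhibitor Slpi (2757 against 1276) and Ceacam1 (198 against 17.7). The milk protein Csn3 went the other way, at 97.4 against 606 CPM, and Lcn2, at 796 against 1238, was not called. Membrane proteases and their inhibitors were higher in 4 of 7 genes and lower in 0 (median 1.09, and 5 of 7 in the short-term pools, 1.69). They included Tmprss2 (47.0 against 2.13), Prss8 (53.4 against 18.1) and the inhibitor Spint1 (24.8 against 6.76).

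Cyclins and cell cycle inhibitors were split. Shares over all genes were 8.89% higher and 10.2% lower in the long-term pools, and 9.85% and 11% in the short-term pools. Ccnd1, cyclin D1, was at 2255 to 3149.7 CPM in long-term Malign_3 (median 2579) and 2774, 2690.4, 2946 and 3117 in the short-term pools, above the 407 to 589 and 417 to 554 of Malign_2. Its partner kinase Cdk6 was at 27.9 against 4.00, and the inhibitors Cdkn1a (p21) at 569 against 235 and Cdkn2b at 41.6 against 19.6. Ccnd2, cyclin D2, was lower at 60.5 against 195, and so was the inhibitor Cdkn1c at 5.07 against 34.6. Thus 4 of 12 genes were higher and 2 lower in each experiment (medians 0.30 and 0.24). Mitotic genes were lower where they were called at all, 7 of 31 proliferation genes in the long-term pools with 0 higher (median -0.68), including Ccnb1, cyclin B1 (20.1 against 58.1), and the centromere protein Cenpf (34.6 against 91.4). Of 32 in the short-term pools, 7 were lower and 1 higher (median 0.01), the higher one being Mcm6, a helicase subunit of DNA replication (167 against 74.3). Mki67 was at 36.6 against 71.4 CPM in the long-term and 156 against 239 in the short-term pools and was not called in either. After thinning it was seen in 7.28% and 20.6% of Malign_3 cells, 10.7% and 25.6% of Malign_2 cells, and 10.7% and 10.3% of the CD4_Tcm-TCF7 cells, so the long-term Malign_3 share was no higher than in those T cells.

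Of 31 DNA repair genes, 12 passed the minimum in the long-term pools, with 1 higher and 1 lower (median 0.13), beside 8.89% and 10.2% of all genes, and 19 in the short-term pools, with 2 and 1 (0.40), beside 9.85% and 11%. Slfn9, of the Schlafen family, was higher at 16.1 against 3.91 CPM, and Rbbp8, which starts the resection of broken DNA ends, was lower at 31.3 against 94.2. Parp1, the target of olaparib, was at 14.8 against 14.1 CPM, and Brca1 at 5.70 against 3.23, under the minimum. Targets of p53 gave 2 of 17 higher and 3 lower (median 0.02) and 3 and 3 of 20 in the short-term pools (median 0.31), to be read against the same shares of all genes. Cdkn1a and the junction protein Perp (2359.7 against 1090.1) were the higher ones of the long-term pools, and the death receptor Fas (24.1 against 88.9), Phlda3 (84.9 against 182) and Sesn1 (12.9 against 32.4) the lower ones. Lpar1, which encodes mouse LPA1, was at 43.1 against 43.8 CPM in the long-term pools. Whether the transgene is counted under that name is not given in the sources used here.

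Of the MHC class I genes, 2 of 19 were lower in Malign_3 in the long-term pools and 3 of 18 in the short-term pools, beside 10.2% and 11% of all genes, and 0 were higher (medians -0.39 and -0.53). H2-D1, a classical MHC class I heavy chain, was at 1751 to 2546 CPM in the long-term pools (median 2145) and 1385, 1325, 1048 and 1445 in the short-term pools, under the 4813 to 5827 and 3708 to 4086 of Malign_2. B2m, its light chain, was at 863 against 1740.2 CPM. H2-K1 was at 1382 against 2609.8 (log2 ratio -0.92, not called) and, in the short-term pools, 927 against 2056 (called lower). Family members of near-identical sequence can share reads, so single class I genes are uncertain. Interferon-stimulated genes had 3 of 26 higher and 2 lower in the long-term pools (median 0.40), near the 8.89% and 10.2% of all genes, and 3 and 5 of 19 in the short-term pools (0.10), beside 9.85% and 11%. Among single members, the interferon regulator Irf7 was the one higher in both (145 against 58.7 and 28.6 against 11.5 CPM), and the membrane protein Ifitm3 and the GTPase Iigp1 were lower in both (Ifitm3 2002 against 4622 in the long-term pools).

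Of 28 ligands and surface signals, 8 were higher and 8 lower in the long-term pools (median 0.41), beside 8.89% and 10.2% of all genes, and 9 and 7 of 26 in the short-term pools (0.41), beside 9.85% and 11%. Tnf, an inflammatory cytokine, was at 134 to 234 CPM in long-term Malign_3 (median 160.3) and 149, 248, 132 and 178 in the short-term pools, with 7.46 or less in every Malign_2 pool. That was 2.01 times the highest other cluster in the long-term pools, the macrophages of Macro-M1, and 0.908 times the highest one in the short-term pools, Macro-others. Also higher were the neutrophil chemokine Cxcl1 (222 against 10.5), the transmembrane chemokine Cxcl16 (96.5 against 14.7), Cd24a (1485 against 418), the epithelial cytokine Tslp (15.3 against 0.298) and Il18 (20.4 against 3.87). Lower in both experiments were the alarmin Il33 (2.28 against 58.0), the galectin Lgals9 (48.4 against 181), the macrophage growth factor Csf1 (13.4 against 34.0), the monocyte chemokine Ccl2 (5.26 against 14.0) and complement C3 (12.0 against 35.2). Vegfa (18.9 against 53.4) was lower in the long-term pools and was not called in the short-term pools.

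Receptors and pathway genes were called in both directions, where 8.89% of all genes were higher and 10.2% lower in the long-term pools and 9.85% and 11% in the short-term pools. Beside Kit, the receptors Erbb3 (33.3 against 3.19) and Igf1r (14.4 against 5.02) and the ligand Hbegf (16.03 against 1.96) were higher in both experiments, and Fgfr1 (8.36 against 22.2), Fgfr2 (5.51 against 61.6), Axl and Ntrk2 (21.1 against 64.5) lower, while the ligand Areg (58.5 against 0.978) was higher in the long-term pools only. This made 5 of 14 growth factor genes higher and 4 lower in the long-term pools (median -0.12) and 5 and 5 of 16 in the short-term pools (-0.55), where Erbb2 (17.4 against 5.76) was among the higher ones. In the Notch pathway, the receptor Notch3 and the target Nrarp (68.9 against 14.7) were higher, and the ligands Jag1 (8.68 against 99.9), Jag2 (0.190 against 33.9) and Dll1 (0.444 against 18.3) lower. With the Wnt and hedgehog genes this gave 3 of 19 higher and 6 lower (median -0.82) and 3 and 9 of 21 (-0.75), with the secreted Wnt inhibitor Sfrp1 at 259 against 1656 CPM.

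The counts of metabolic and stress genes stand beside the 8.89% higher and 10.2% lower over all genes in the long-term pools and the 9.85% and 11% in the short-term pools. Of 21 hypoxia and glycolysis genes, 2 were higher and 3 lower (median -0.03, short-term 3 and 2 of 20, 0.29), with the hexokinase Hk1 at 63.2 against 18.8 and the glucose transporter Slc2a1 at 75.0 against 155. Of 20 antioxidant genes, 4 were higher and 2 lower (0.14, short-term 5 and 5 of 20, 0.13). The glutathione peroxidases Gpx2 (45.6 against 1.79) and Gpx4 (848 against 371) were higher and the metallothionein Mt1 (5234 against 10762) lower. Efflux transporters had 2 of 4 higher (1.20, short-term 4 of 6, 1.44), Abcc3 and Abca3 (21.3 against 5.65). Abcb1a and Abcb1b, the P-glycoprotein genes known for exporting olaparib, were at 0.634 and 2.28 CPM, under the minimum. Among 16 mitochondrial and creatine genes, 3 were higher and 2 lower in each experiment (0.01 and 0.11). The mitochondrial creatine kinase Ckmt1 was at 466 against 209.6 and Chchd10 at 488 against 40.0, while the cytosolic creatine kinase Ckb was at 37.9 against 523. Immediate early and stress genes were higher in 7 of 23 and lower in 1 in the long-term pools (0.73), including Atf3 (354 against 42.7) and Jun (1116 against 554), and higher in 3 of 24 and lower in 2 in the short-term pools (0.44). Socs3, a brake on cytokine signaling, was lower in both (80.3 against 341 in the long-term pools). Median mitochondrial percent was 1.15 in long-term Malign_3 and 0.923 in Malign_2 and 1.69 and 1.75 in the short-term pools, and its part in these stress gene levels was not tested.

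**Figure D4:**
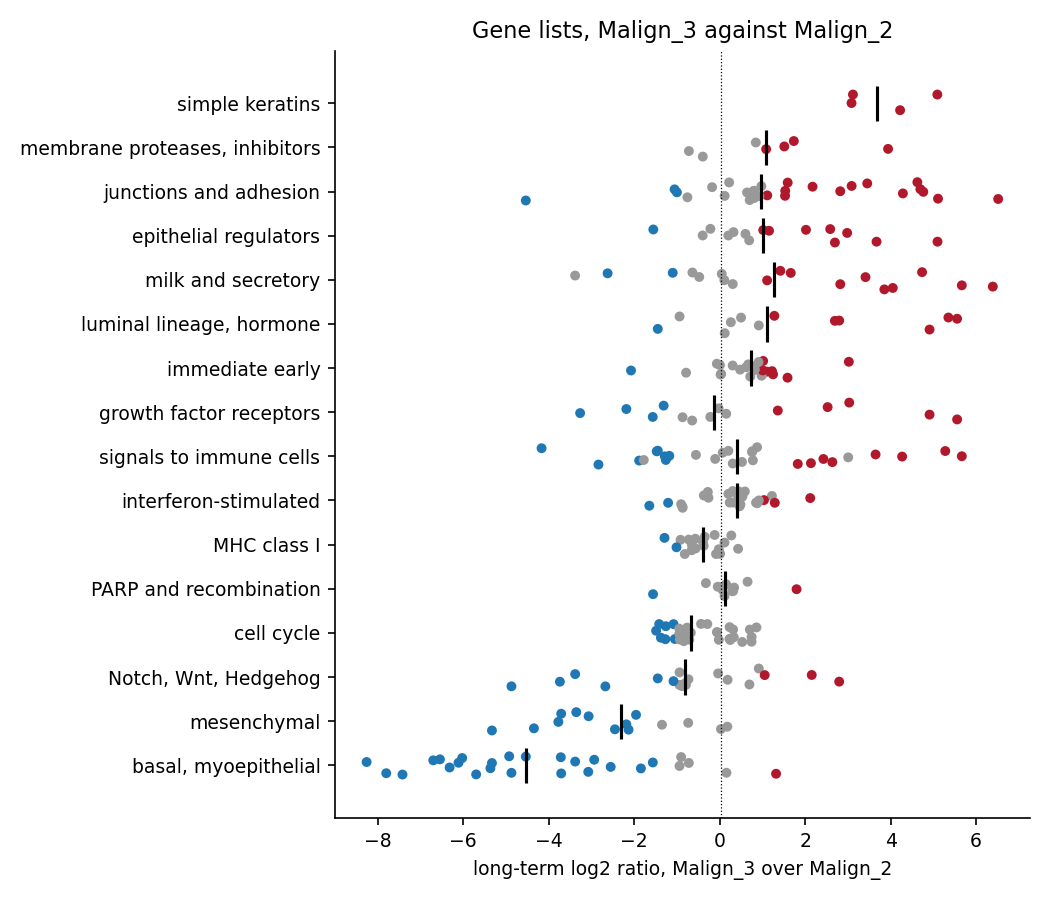
Long-term log2 ratios of Malign_3 to Malign_2 for the genes of 16 lists, with a point for each gene above the minimum (red called higher, blue called lower, grey not called), a bar at each list's median and a dotted line at the median of all genes, 0.02. The basal list sits lowest with a median of -4.54 and the simple keratins highest with 3.67, while the DNA repair genes (drawn as PARP and recombination) have a median of 0.13.

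The gene lists that the study published for these clusters were chosen on these cells, so their direction is not independent evidence. Of the 25 genes listed for Malign_3, 23 were higher than in Malign_2 in the long-term pools (median 3.12) and 22 in the short-term pools (3.63). Of the 25 listed for Malign_2, 20 and 23 were lower (medians -1.63 and -1.78).

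Against every other cluster, Malign_3 was set apart by fewer genes. Of 11794 genes above 10 CPM in any long-term cluster of at least 50 cells, 170 were at least 2-fold over the highest of the other clusters and above it in every pool (1.44%), as were 285 of 11848 in the short-term pools (2.41%), and 155 were so in both. The 12 with the largest long-term ratios were led by Bglap3, an osteocalcin relative, at 53.5 to 162 CPM in the long-term pools (median 93.0) and 96.0, 162, 111 and 74.5 in the short-term pools, 16.8 times the next cluster on log2(CPM + 1). Its family members are close in sequence, so the assignment of its reads is uncertain. Upk3a, a uroplakin of the bladder lining, followed with a ratio of 12.4, at 32.7 to 152 CPM (median 74.5). Its short-term pools were at 22.7, 47.6, 2.61 and 72.8 CPM, 0.869 times the monocyte cluster CD14-PF4. That value rests on single pools, with a log2 ratio of -0.20 over all 4, 3.60 without pool 2 and -1.36 without pool 4. In the short-term pools Malign_2 had 0 UMIs, so that Malign_3 was at least 546-fold higher against a floor of 3 counts in that cluster.

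The other 10 were Cited4, a transcriptional co-activator (777 to 972 CPM, ratios 8.66 and 13.1), Krt19 (8.49 and 6.75), Tfcp2l1, a grainyhead family factor (8.37 and 17.4), Wfdc12 (8.23 and 51.2), the cytochrome P450 Cyp2f2 (8.17 and 8.32), Atp6v1b1, a proton pump subunit (7.82 and 6.66), Cldn7 (7.55 and 5.52), Barx2 (7.16 and 22.8), Wfdc3 and the phospholipase Plb1 (6.69 and 5.54). Single pools moved 5 of them by over 1.5 times. In the short-term pools, the log2 ratio of Plb1 was 2.47, and 3.91 without pool 1, that of Tfcp2l1 4.12, and 5.05 without pool 2, that of Barx2 4.51, and 5.28 without pool 2 or 3.87 without pool 4, and that of Atp6v1b1 2.74, and 3.62 without pool 4. In the long-term pools, Tfcp2l1 went from 3.07 to 3.66 without pool 1 and Wfdc12 from 3.04 to 3.84 without pool 5. For many of them the next cluster was CD14-PF4, which had 98 long-term and 66 short-term cells and itself showed Krt18 at 647 and Hp at 1362 CPM in the long-term pools. Not every gene far over Malign_2 was high against all clusters. Dmkn was at 344 CPM in the inflammatory fibroblasts of i_CAF in the long-term pools, and Plet1 at 440.0 CPM in CD14-IL1B.

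Over whole profiles, Malign_2 was the cluster most like Malign_3, with Pearson's r of log2 CPM across genes of 0.789 in the long-term and 0.735 in the short-term pools. CD14-PF4 came next in the long-term pools (0.624), and the T127 clusters Malign_1 (0.576) and Malign_0 (0.570) followed. Against Malign_0, 1531 of 8347 genes were higher in Malign_3 (18.3%) and 1686 lower (20.2%), and against Malign_1 1622 of 8276 were higher (19.6%) and 1616 lower (19.5%). The 10 genes fixed as marking T127 cells, such as Dynap and Hmga2, were picked on the short-term pools. They had the largest folds of T127 malignant cells over the highest T22-pool cluster, Malign_3 included. Their low short-term level in Malign_3 therefore follows from the choice. They summed to 31.7 CPM in long-term Malign_3 (4.61 to 67.1 by pool), against 2685 in Malign_0 and 2404 in Malign_1. The short-term sum in Malign_3 was 2.86 CPM, where no T127 tumor was pooled. Hmga2 alone was at 13.7 CPM against 1105 in Malign_0.

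Some genes varied strongly between Malign_3 cells. The 12 genes with the largest excess variation over counting noise in the long-term pools were Areg, Krt17, Csn3, Il1b, S100a4, Cxcl2, Upk3a, Hist1h1b, Apod, Dcn, Ecrg4 and C1qa. Areg, a ligand of the epidermal growth factor receptor, had a UMI in 73 of 907 cells, and 10 cells held 86.5% of its UMIs. By pool it ran from 4.03 over 24.2 to 165 CPM, and the short-term pools held 1.08, 1.80, 5.23 and 10.6. Krt17, a keratin of basal and stressed epithelium, had 64.0% of its UMIs in 10 cells and Csn3 67.7%. Upk3a had 50.0% in 10 of the long-term cells and 89.4% in 10 of the short-term ones, so its high ratio rests on few cells. The identity genes were even in comparison, with 4.23% of Epcam, 6.55% of Krt8, 6.42% of Krt18, 7.03% of Kit and 14.4% of Krt14 UMIs in their 10 highest cells, where the 10 deepest cells held 3.11% of all UMIs.

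Among the varying genes were some that were higher in other clusters. Il1b, an inflammatory cytokine of myeloid cells, had 58.6% of its UMIs in 10 cells, and these had 8862 CPM of 12 macrophage genes against 729 over all long-term Malign_3 cells. For C1qa, a complement gene of macrophages, 10 cells held 53.1% and had 12721 CPM of macrophage genes. Dcn, a fibroblast proteoglycan, had 70.9% of its UMIs in 10 cells, and Malign_2 held it at 685 to 864 CPM. Ecrg4 (11158 CPM), Apod (825) and Csn3 (606) were at higher levels in Malign_2 than in Malign_3 too. Whether such cells were doublets was not tested. Without the 5% of cells with the most UMIs in each pool, 745 genes were higher and 803 lower than in Malign_2 in the long-term pools.

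Genes of other cell types were present in Malign_3 at low levels that differed between the experiments. The 12 macrophage genes summed to 364 to 1077 CPM in the 8 long-term pools and 135, 79.9, 88.0 and 189.9 in the short-term pools, against 86246 in long-term Macro-M1, and Malign_2 had 667 and 871.5 CPM. The 4 red cell genes summed to 990.5 to 3722 CPM in the long-term pools and 0 to 0.898 in the short-term pools, where Hbb-bt, Hba-a1 and Hba-a2 had no UMI. The 8 general leukocyte genes summed to 172 CPM in the long-term pools (52.7 to 290.0) and 67.5 in the short-term pools (16.2 to 139), and the 10 genes of T and NK cells 28.5 and 46.5, with Cd8a at 0 in the short-term pools. Neutrophil genes summed to 57.2 CPM in the long-term pools (10.8 to 254, or 33.5 without pool 6) and 2.10 in the short-term pools (0 to 4.31, or 0.885 without pool 1), where Csf3r and Mmp8 were at 0. B and plasmacytoid dendritic cell genes summed to 432 CPM in the long-term pools, of which Bst2, also an interferon-induced gene, made up 427.

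Stromal genes were low as well. The 10 fibroblast genes summed to 109 CPM in the long-term and 78.0 in the short-term pools against 37299 in i_CAF, with Pdgfra and Fap at 0 in the short-term pools. Pericyte genes summed to 68.5 and 66.4 CPM, and endothelial genes to 7.29 and 11.1, with Cldn5 at 0 in the long-term pools and Cdh5, Plvap and Tek at 0 in the short-term pools. Of the adipocyte genes, Fabp4 gave the whole 2.98 CPM of the long-term pools, and Adipoq, Plin1, Cidec and Lep were at 0 in both experiments.

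**Figure D5:**
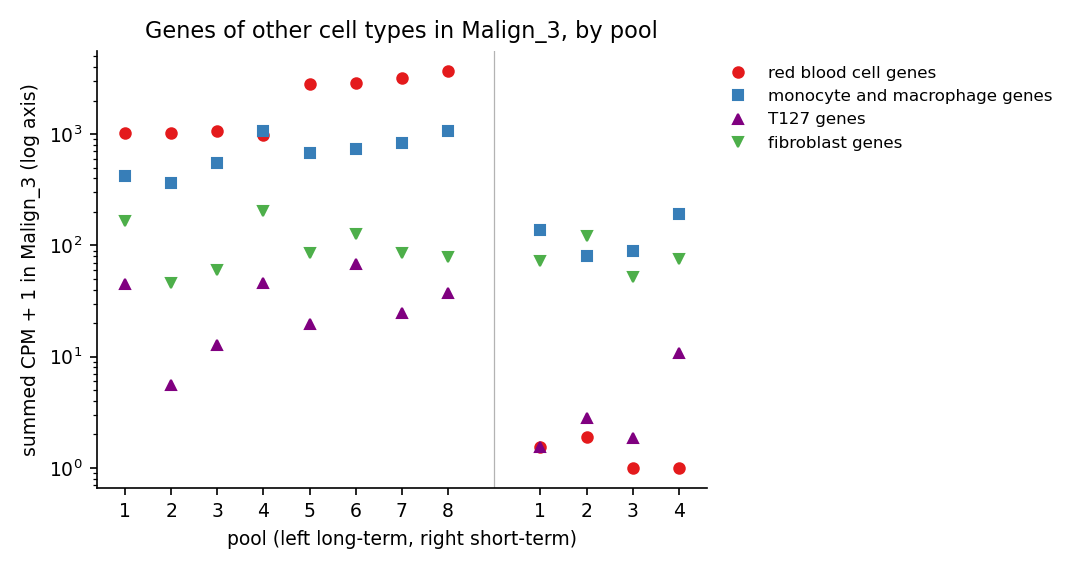
Summed CPM plus 1 of red cell, macrophage, T127 and fibroblast genes in Malign_3 on a log axis, with a point for each of the 8 long-term and 4 short-term pools. Red cell genes lie at 990.5 CPM or more in every long-term pool and below 1 CPM in every short-term pool, and macrophage genes lie at 364 CPM or more and at 189.9 CPM or less.

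The long-term and short-term Malign_3 cells were set side by side last, as a description over pools that differ in tumors, transplantation setting, time and depth. A gene was called where it differed 2-fold and the 8 and 4 pools did not overlap. Of 8271 genes, 73 were higher in the long-term pools (0.883%) and 1159 lower (14%), around a median log2 ratio of -0.31, which was the same in Malign_2 (-0.31, with 74 genes higher and 888 lower of 8160). Median-of-ratios scaling gave 63 and 1306. With a pseudocount of 10 in place of 1 the lower count was 294, and with long-term pools 1 to 4 alone the higher count was 142. The ratios below are on the CPM scale and are not shifted by that median.

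The 8 genes at the top of the long-term side were dominated by hemoglobin and myeloid genes. Hbb-bs, a beta globin, ran from 671 over 1164 to 2166 CPM in the long-term pools and was 0.539, 0.898, 0 and 0 in the short-term pools, from 2 UMIs in all. Hba-a1 ran from 276 over 636 to 1311 CPM and Hbb-bt from 28.8 over 106 to 245, both with 0 UMIs in the short-term pools, so that they were at least 1211-fold and 208-fold higher against a floor of 3 counts. Globin genes are near-identical in pairs, so the split between them is uncertain. In Malign_2 the long-term level of Hbb-bs was 1170.2 CPM, close to the 1257 of Malign_3, and its short-term level sat in pool 4 (458 CPM), where Malign_3 had 0. The short-term ratio of Malign_2 to Malign_3 for this gene, 288, rests on that pool and was 0.397 without it, from 7 against 2 UMIs.

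Spp1, osteopontin, ran from 23.04 over 35.5 to 623 CPM in the long-term pools and was 2.16, 16.2, 4.36 and 7.99 in the short-term pools. Pool 4 alone held the 623, and without it the log2 ratio fell from 4.08 to 2.55. Il1b ran from 21.1 over 44.7 to 82.3 CPM against 3.78, 1.80, 0.871 and 7.10, the MHC class II gene H2-Aa from 40.8 over 96.3 to 202 against 16.2, 5.39, 7.84 and 23.1, and the lysozyme Lyz2 from 30.3 over 70.2 to 177 against 11.9, 9.87, 5.23 and 19.5. None of these 4 genes overlapped between the experiments. Areg was also among the 8, and its pools overlapped. Of 9 macrophage genes, 7 were called higher and 0 lower in the long-term pools, beside the macrophage gene sums given above, and the part of other cells' RNA in these levels was not tested. Interferon-stimulated genes were higher in 4 of 25 (median 0.84), namely Isg15 (151 to 589 CPM against 42.1, 39.5, 43.6 and 87.9), Irf7, Usp18 and Xaf1. The macrophage and interferon counts stand beside 0.883% higher and 14% lower over all genes.

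Of the tumor cell genes, Krt7 and Fxyd2 were higher in the long-term pools, at log2 ratios of 1.22 and 1.45. The 8 genes at the top of the short-term side included 4 histone genes and Mki67. Mki67 was at 28.2 over 36.6 to 48.3 CPM in the long-term pools and 166, 184, 173 and 95.8 in the short-term pools, 4.27 times as high, without overlap. Of the histone genes, Hist1h2ak and Hist1h4d were called, with Hist1h2ak at 6.94 to 30.0 against 138, 123, 177 and 36.4 CPM and Hist1h4d at 18.0 to 63.0 against 210.3, 280.1, 339 and 109, though Hist1h3c (4.86 to 34.2 against 108, 137, 262 and 32.8) and Hist1h1d (2.44 to 22.4 against 50.7, 46.7, 134 and 16.9) overlapped at pool 4. Each of these genes has near copies within its own histone family, so their single values are uncertain. Over all 32 proliferation genes, 4 were lower in the long-term pools and 0 higher, beside 14% and 0.883% of all genes, with a median of -0.43 beside the -0.31 of all genes.

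The last members of the short-term side were Tnc, the matrix protein tenascin (6.56 to 19.1 against 41.5, 215, 24.4 and 65.7 CPM), Eppk1, a linker of keratin filaments (12.6 to 25.2 against 63.1, 85.3, 88.0 and 80.8), and Tsix, an antisense RNA (11.2 to 46.9 against 157, 244, 192 and 149), whose reads cannot be told apart from those of its sense partner unless counting used strand, which the sources used here do not state. None of these 3 overlapped between the experiments. Kit and Cdh1 were on this side as well, at 2.92 and 2.44 times their long-term levels, and so was Krt5 (log2 ratio of long-term to short-term -2.91). Tight junction and adhesion genes had 11 of 29 lower in the long-term pools and 0 higher (median -0.75, beside -0.31 for all genes), and DNA repair genes 5 of 19 lower and 0 higher (-0.78), where 14% of all genes were lower and 0.883% higher. Median depth was 15056 UMIs in the long-term and 21180.5 in the short-term Malign_3 cells, and its part in these differences was not tested.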

How the data were processed

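Single cell libraries of 16 pools were made by the authors with 10x Genomics 3' chemistry and hashed tumors, and per the labels they were processed with Cell Ranger 6.0.0 on GRCm38. The authors' methods state that intronic reads were included, that cells with few genes or with high mitochondrial content were removed, that doublets were removed with Scrublet, and that malignant cells were called by copy number. The limit on genes is stated as 1000 in one place and lower in another. Of 53946 cells as deposited, 8635 had under 1000 genes (lowest 402), but 0 Malign_3 cells did (lowest 2529). Raw counts as deposited by the authors (UMIs for 32285 genes) and the deposited cluster names were used, and doublets were not called again. The deposited normalized signal of 4000 genes was not used. In long-term pools, only the deepest copy of a shared barcode of 16 bases was kept. UMIs were summed per cluster and pool and given as CPM, per 1000000 UMIs. Ratios were taken on log2(CPM + 1), or on CPM with a conditional binomial interval of 95%. Shares have exact binomial intervals. Clusters of at least 50 cells were compared. Cells do not stand as replicates and clusters were defined on the same genes, so no test was run. Pools hold several tumors each, and nothing used here says whether pools share tumors, so their spread may be technical.

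Members and gene lists were chosen with earlier results of these data known. Named genes were the 4 markers, the 12 largest and 12 smallest long-term ratios to Malign_2 among genes of at least 50 CPM called in both experiments, the 12 largest ratios to the highest other cluster, the 12 most variable genes, the 8 largest and 8 smallest ratios between the experiments, and from each list the largest or best known members. Alternatives were a pseudocount of 10, no minimum CPM, median-of-ratios scaling, every barcode copy kept, cells with the most UMIs left out, other thinning depths, each pool left out, and, chosen after the data were examined, the pool as a block and sets of long-term pools. Further ones kept only cells of at least 1000 genes, left out malignant cells with a Ptprc UMI, or averaged single-cell CPM. Calculations used Python 3.11.15 with numpy 2.4.6, scipy 1.17.1, pandas 2.3.3 and matplotlib 3.10.9, and were tested on simulated data. The simulated comparisons of clusters held counting noise only, so how the calls behave with variation between pools was not tested. Depth per cell and pool is given with the results. No sequence or coordinate is shown.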

Additional observations from a re-analysis of the deposited data

Results flagged for a closer look

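In 138 groups of 4 or 8 pools of Malign_3, a pool standing far from the rest was looked for, and 10 were found. The rule has a nominal rate of about 1 in 20 groups for independent, normally distributed values. The genes were chosen on these same pools and some rest on few UMIs, so that rate may not hold here. In the long-term pools, Spp1 was at 623 CPM in pool 4 and 23.04 to 113 in the others, and Itprid1 was lowest there at 66.1 (others 83.0 to 96.1). Pool 6 was highest in the histone genes Hist1h1b, at 161 CPM (58.8 to 103), and Hist1h3c, at 34.2 (4.86 to 15.8). Pool 5 had 3.47 CPM of Mylk (0 to 1.27). In the short-term pools, pool 2 was highest in Krt8 at 2048 CPM (1786 to 1818), Cdh1 at 359 (247 to 263) and Dcn at 25.1 (4.36 to 7.10), and it had the fewest Malign_3 cells, 44. Pool 1 had 1.62 CPM of Moxd1 (0.871 to 0.898), values that rest on a few UMIs. Pool 3 had a median mitochondrial percent of 1.91 (1.60 to 1.65).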

How the results depend on the processing

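Malign_3 and Malign_2 came from the same pools. With the pool as a replicate block, an alternative added after the data were examined in which log2 ratios were taken within each pool and averaged, 697 genes were higher and 812 lower in the long-term pools and 858 and 997 in the short-term pools. Long-term and short-term pools share only a number. Of the log2 ratios of the named genes recomputed under every alternative, those past 2-fold as reported kept their direction. The short-term ratio of Malign_2 to Malign_3 for Hbb-bs was not among them. It turned direction without pool 4, as given above. The short-term log2 ratio of Upk3a over the highest other cluster, -0.20 and so within 2-fold, ran from -1.36 to 3.60 when single pools were left out. With a pseudocount of 10, 441 genes were higher and 524 lower than in Malign_2 in the long-term pools and 560 higher in the short-term pools, and 294 were lower in long-term than in short-term Malign_3. Without a minimum CPM, 1065 genes were higher and 1202 lower than in Malign_2 in the long-term pools, 1496 were lower in the short-term pools, and 112 were higher in long-term than in short-term Malign_3. With long-term pools 1 to 4 alone, an alternative added after the data were examined, 142 genes were higher in long-term than in short-term Malign_3. These alternatives differ in the low genes or the pools that they take in, and what moved the counts was not tested. Without the 5% of cells with the most UMIs, the short-term log2 ratio of Krt18 was 5.96 (5.40 with them), and the cause was not tested. With every barcode copy kept, Malign_3 was 2.98% of long-term cells.

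Shares of cells with a UMI moved with depth. Unthinned and at 2000 UMIs, long-term then short-term, they were 99.9%, 98.6%, 100% and 96.3% for Epcam, 100%, 93.8%, 100% and 85.3% for Krt8, 100%, 96.7%, 100% and 92.2% for Krt18, 79.3%, 21.7%, 97.7% and 46.3% for Cdh1, 74.3%, 43.4%, 74.3% and 45.0% for Krt14, and 80.5%, 30.0%, 97.2% and 53.2% for Kit. Unthinned Acta2 was seen in 20.2% and 37.2%, and Mki67 in 20.9% (5.62% at 2000 UMIs) and 36.7%.

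Leaving out each pool in turn gave 694 to 719 genes higher and 781 to 810 lower than in Malign_2 in the long-term pools and 841 to 933 and 966 to 985 in the short-term pools. Log2 ratios stayed at 1.58 to 1.60 and 1.46 to 1.61 for Epcam, 3.09 to 3.14 and 2.79 to 2.94 for Krt8, 5.05 to 5.13 and 5.24 to 5.62 for Krt18, and 0.69 to 0.86 and 0.66 to 0.87 for Cdh1. Over the highest other cluster there were 164 to 186 and 284 to 301 genes, and between the experiments 68 to 89 higher and 1085 to 1332 lower. Malign_3 was 39.0 to 41.1% and 10.1 to 12.0% of T22 malignant cells. Among values of single named genes other than Epcam, Krt8, Krt18 and Cdh1 under all alternatives, 1345 moved by less than the spread between pools and 151 by more. Of the values of the main comparisons and those 4 genes, 322 stayed within their limits and 40 did not. The 1345 include settings that could not move a ratio, such as no minimum CPM, where all 88 values stayed. Such totals therefore do not measure how stable the ratios are. With 44 to 72 cells in a short-term pool, levels near 1 CPM rest on a few UMIs there, so differences in rare genes were not detectable at this depth.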
